A study of Homo sapiens with 12 samples.

Results

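Plasma membrane amino acid transporters were examined as a set of 10 genes, chosen by gene name from the 58721 genes of the deposited count and TPM tables: SLC1A3, SLC1A4, SLC1A5, SLC3A2, SLC7A1, SLC7A5, SLC6A9, SLC38A1, SLC38A2 and SLC43A1. All 10 names were found once each. The data are polyA+ RNA-seq libraries of Pa-Tu-8902 and MIA PaCa-2, both established human pancreatic ductal adenocarcinoma (PDA) lines. Each line stably carried iDox-shGOT1, a lentiviral hairpin against the aspartate aminotransferase GOT1 that is switched on by doxycycline (dox). Cells of each line were left untreated or given dox for 5 days, with 3 libraries for each of the 4 groups. Untreated cells carried the hairpin too. A difference between the lines cannot be told apart from one of their culture or library batch. No library of a line with a non-targeting hairpin was analysed here, so a response to dox itself and one to the knockdown cannot be told apart, and which GOT1 hairpin was used is not given in the sources used here. Nothing says that the libraries of a group came from separate cultures, so p-values measure the spread between these libraries, which may be technical.

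Amino acids cross the plasma membrane through carriers with overlapping substrates. Some use the sodium gradient to load the cell, such as the SLC38 carriers of glutamine and the SLC1 carriers of glutamate and aspartate. Others are exchangers that swap an internal amino acid for an external one, such as SLC7A5, which reaches the cell surface only as a partner of the heavy chain SLC3A2. Several of these genes are known targets of ATF4, the transcription factor that cells use when amino acids run short. GOT1 itself interconverts aspartate and glutamate with their keto acids, and the comparisons ask how the transporters differ with and without its knockdown and between untreated lines.

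Total expected counts ranged from 26226537 to 43406137 per library. GOT1 fell by 4.64 ± 0.09 (SE) on the log2 scale with dox in Pa-Tu-8902 and fell by 4.76 ± 0.11 in MIA PaCa-2, so the targeted gene was low in the libraries labelled dox. Of 6 epithelial markers, all 6 were at 1 TPM (length-normalized transcript abundance) or more in every untreated Pa-Tu-8902 library and 3 were in MIA PaCa-2, where EPCAM, CDH1 and KRT7 were near 0. The summed TPM of 4 mesenchymal markers was 6.56 to 12.9 in untreated Pa-Tu-8902 and 3539 to 4165 in untreated MIA PaCa-2, nearly all of it VIM. VIM and ZEB1 were called lower in Pa-Tu-8902 than in MIA PaCa-2, and CDH2 and FN1, at no more than 1.16 TPM in any library, were called higher. CDH2 had a mean of 0.32 normalized counts in untreated MIA PaCa-2. It passed the filter on low counts (10 counts or more in at least 3 libraries) only through Pa-Tu-8902, so that it had to differ. The 6 acinar and islet markers summed to at most 0.72 TPM in any library. The summed level of 6 fibroblast markers was 3.82 to 6.38 TPM in untreated and 18.0 to 21.7 TPM in dox-treated Pa-Tu-8902, with COL1A1 leading. In MIA PaCa-2, where COL1A2 led, it was 192 to 248 TPM and 340 to 398 TPM. That of 5 immune markers was 3.23 to 9.98 TPM, nearly all of it from CD68. With dox, CDH1 (log2 0.86), COL1A1 (log2 1.87) and PDGFRB (log2 1.73) were called higher and CD68 (log2 -0.71) lower in Pa-Tu-8902, and COL1A2 (log2 0.70) was called higher and KRT19 (log2 -1.66) lower in MIA PaCa-2. PDGFRB had means of only 7.50 normalized counts in untreated and 25.5 in dox-treated Pa-Tu-8902. It passed the filter on low counts only through the dox libraries. The summed epithelial level was 9218 to 10310 TPM in untreated and 7888 to 8907 TPM in dox-treated Pa-Tu-8902, and 2716 to 2983 TPM and 2829 to 3060 TPM in MIA PaCa-2. The summed mesenchymal level with dox was 4.62 to 5.6 TPM in Pa-Tu-8902 and 3728 to 4228 TPM in MIA PaCa-2. The part of these differences in the results for the transporters was not tested.

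Short stretches around matches to a regulatory motif are shown because several of these transporters are textbook ATF4 targets. The motif was the core of the amino acid response element, TGATGNAA, in which N is any base. Both strands of RefSeq promoter windows of 300 bases (GRCh38.p14) were searched. Capitals mark the match, and each stretch is written 5′ to 3′ on the strand of its gene.
SLC7A1, chr13:29595666-29595689, minus strand: cgcactgcTGATGAAAcctggcgc
SLC1A4, chr2:64989384-64989407, plus strand: gctcccgtTTGCATCAtctccagc
SLC38A1, chr12:46266505-46266528, minus strand: gacccgaaTGATGAAAagggatca
SLC1A3, chr5:36596360-36596383, plus strand: gaaatgacTGATGCAAagcagggt
SLC1A5, chr19:46784896-46784919, minus strand: gaagtggcTGATGCAAgctgtcca
SLC3A2, chr11:62881728-62881748, plus strand: aggactccTTACATCAgctcc
ASNS, an ATF4 target shown for comparison, chr7:97872461-97872484, minus strand: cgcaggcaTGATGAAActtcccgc
The match lay on the opposite strand in SLC1A4 and SLC3A2. It occurred in windows of 6 of the 10 transporters, of 0 of 22 other amino acid transporters with a window, and of 2 of 10 amino acid response genes (ASNS and CHAC1), beside 4.46% of all 27305 genes with windows. Counted by window, it occurred in 6 of 19, 0 of 32 and 2 of 16, beside 3.63% of all 34796 windows. Genes differed in how many windows were searched. The window with the match was placed around the start of the most abundant transcript in SLC1A4 and SLC7A1. In the others it was placed around a start 803 to 10018 bases away. A second motif, the E-box CACGTG bound by MYC and related factors, was found for SLC1A5, SLC7A5 and SLC43A1, 3 of the 10 members, beside 5 of the 22 other transporters and 8.77% of all genes. In SLC7A5 it lay 130 bases before the start of the leading transcript.
SLC7A5, chr16:87869624-87869645, minus strand: ggacgacgCACGTGctccgagc
A match is a description of letters and not a site shown to be bound.

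The heterodimer of SLC7A5 and SLC3A2 dominated the set in Pa-Tu-8902. SLC7A5 (LAT1; chr16:87830023-87869507, GRCh38, minus strand), the light chain that exchanges large neutral amino acids, stood at 1049, 1111 and 1112 TPM in the 3 untreated Pa-Tu-8902 libraries and at 109, 83.3 and 112 in those of MIA PaCa-2. SLC3A2 (4F2hc or CD98; chr11:62856004-62888880, plus strand), its heavy chain, stood at 833, 869 and 916 TPM against 120, 124 and 132. No MIA PaCa-2 library came near a Pa-Tu-8902 library for either gene. The difference was 10.5-fold for SLC7A5 (log2 3.40 ± 0.09 SE, adjusted p = 7.93e-13, quasi-likelihood test of edgeR, Benjamini-Hochberg adjusted) and 6.95-fold for SLC3A2 (log2 2.80 ± 0.08, adjusted p = 2.79e-12). SLC7A5 held rank 144 and SLC3A2 rank 180 by mean TPM among 58721 genes in untreated Pa-Tu-8902, against ranks 1466 and 1168 in untreated MIA PaCa-2. Together they made up 85.2% ± 0.56 (SD, n = 3) of the summed TPM of the 10 transporters in untreated Pa-Tu-8902 and 37.7% ± 1.61 in untreated MIA PaCa-2. The summed TPM of the other 8 members was 342 ± 10.9 (SD, n = 3) and 376 ± 46.5, so the ranges of the 2 lines overlapped.

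With dox, the fitted changes of both genes were positive in both lines and under 1.5-fold. A gene was called when its adjusted p was below 0.01 and its fold change at least 1.5 in either direction. In Pa-Tu-8902 the normalized counts of SLC7A5 were 105549, 110729 and 121551 untreated and 118951, 138835 and 136537 with dox, so the groups overlapped (log2 0.22 ± 0.07 SE, edgeR adjusted p = 0.0198). SLC3A2 overlapped likewise in Pa-Tu-8902 (log2 0.26 ± 0.07, edgeR adjusted p = 0.0127). In TPM, the groups of Pa-Tu-8902 did not overlap for either gene, with SLC7A5 at 1049 to 1112 untreated and 1257 to 1403 with dox, and SLC3A2 at 833 to 916 and 1041 to 1149. In MIA PaCa-2 the SLC7A5 counts were 11244, 9725 and 11378 untreated and 14452, 14776 and 13239 with dox, with every dox library above every untreated one (log2 0.42 ± 0.07, edgeR adjusted p = 9.86e-04). SLC3A2 in MIA PaCa-2 had a log2 difference of 0.28 ± 0.07 (edgeR adjusted p = 0.00603), also without overlap. The difference between the lines in these responses was -0.19 ± 0.11 for SLC7A5 and -0.01 ± 0.11 for SLC3A2 on the log2 scale, with edgeR adjusted p = 0.228 and 0.982. Some SLC7A5 reads can be shared with the pseudogene SLC7A5P1, which was listed at 0.72 to 6.41 TPM. How large that part is was not measured.

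**Figure D1:**
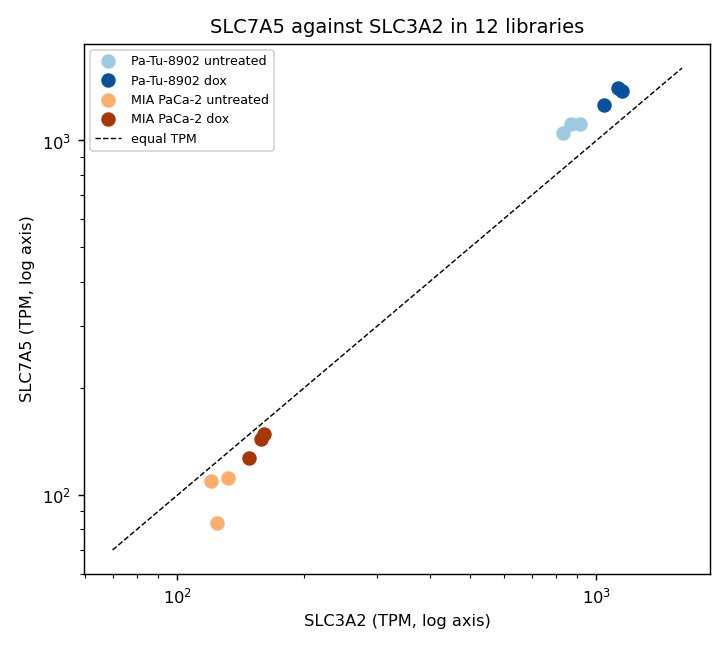
SLC7A5 against SLC3A2 in TPM, both on log axes, for the 12 libraries coloured by group, with a dashed line of equal TPM. The Pa-Tu-8902 libraries lie above the line at 1049 TPM of SLC7A5 or more, and the MIA PaCa-2 libraries lie below it at 149 TPM or less.

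The ratio of SLC7A5 to SLC3A2, both per length, was 1.25 ± 0.03 (SD, n = 3) in untreated Pa-Tu-8902 and 1.22 ± 0.02 with dox. It was 0.81 ± 0.12 in untreated MIA PaCa-2 and 0.90 ± 0.03 with dox. SLC7A5 supplied 97.5% ± 0.22 of the summed TPM of 7 listed light chains of the SLC7 family in untreated Pa-Tu-8902. In untreated MIA PaCa-2 it supplied 76.6% ± 1.03, and SLC7A6 (y+LAT2, an exchanger of cationic and neutral amino acids) supplied 21.3% ± 0.92. SLC7A11 (xCT), the light chain that imports cystine, supplied 0.72% ± 0.07 and 1.78% ± 0.07. Its normalized counts were 1793, 2016 and 1814 in untreated and 1172, 1094 and 1139 in dox-treated Pa-Tu-8902 (log2 -0.73 ± 0.06, edgeR adjusted p = 5.46e-06), and 566, 517 and 621 against 245, 154 and 212 in MIA PaCa-2 (log2 -1.45 ± 0.14). SLC7A11 fell in both lines, and the fall was larger in MIA PaCa-2 (difference 0.73 ± 0.15 on the log2 scale, edgeR adjusted p = 0.00176). These values are of mRNA, and the paper reported no change in xCT protein after GOT1 knockdown. SLC7A6 did not reach the fold limit in either line, but its responses differed (log2 -0.22 ± 0.05 for Pa-Tu-8902, 0.52 ± 0.08 for MIA PaCa-2, difference -0.74 ± 0.09, edgeR adjusted p = 1.44e-05).

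SLC43A1 (LAT3; chr11:57484534-57515780, minus strand), a sodium-independent carrier of large neutral amino acids, was scarce throughout, at 0.27 to 1.03 TPM. It did not pass the test with dox in Pa-Tu-8902 (log2 0.04 ± 0.20, edgeR adjusted p = 0.887). In MIA PaCa-2 its counts were 51, 39 and 40 untreated and 15, 22 and 16 with dox, and it was called lower (log2 -1.21 ± 0.29, edgeR adjusted p = 0.00636). That call was lost when any of 4 of the 6 libraries was left out and with effective gene lengths as offsets (edgeR adjusted p = 0.0117).

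**Figure D2:**
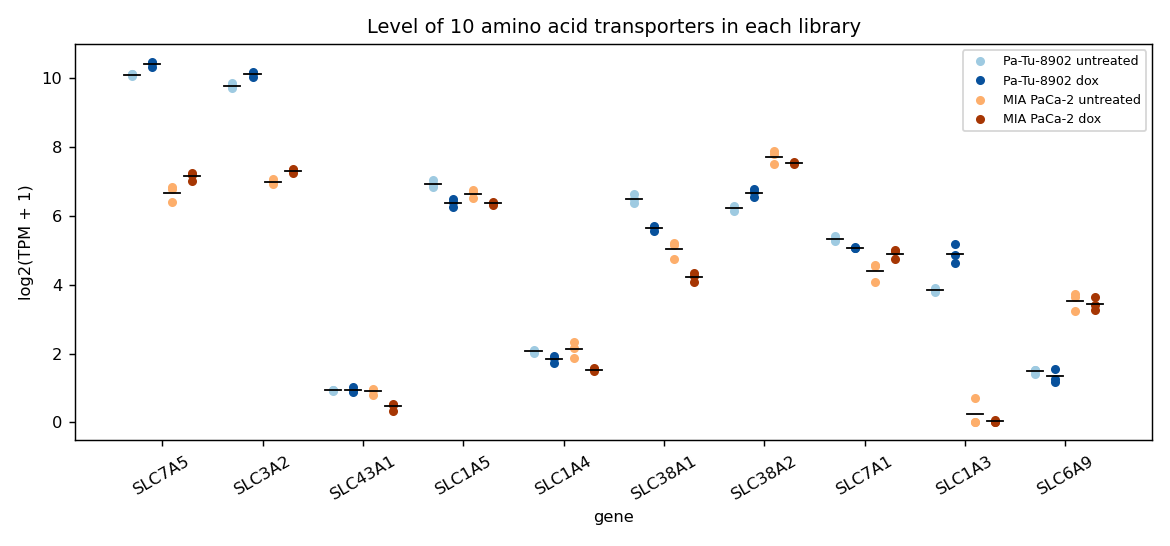
log2(TPM + 1) of the 10 transporters in each of the 12 libraries, coloured by group, with a short line at the mean of each group. SLC7A5 and SLC3A2 stand apart in Pa-Tu-8902, and SLC1A3 is near 0 in MIA PaCa-2.

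Of the exchangers of small neutral amino acids, SLC1A5 was called lower with dox in Pa-Tu-8902 and SLC1A4 in MIA PaCa-2. SLC1A5 (ASCT2; chr19:46774883-46788594, minus strand), which exchanges glutamine, was at 6022, 6369 and 7406 normalized counts in untreated and 3766, 4603 and 4330 in dox-treated Pa-Tu-8902. The groups did not overlap, and the gene was called lower (1.56-fold, log2 -0.64 ± 0.08 SE, edgeR adjusted p = 7.79e-05). Without untreated replicate 3 or without dox replicate 1 of Pa-Tu-8902 its log2 value was -0.56 and -0.55, short of the fold limit. In MIA PaCa-2 the counts were 5540, 5486 and 5815 against 4214, 4343 and 4138, a smaller difference that passed the p but not the fold limit (log2 -0.38 ± 0.06, edgeR adjusted p = 3.27e-04). SLC1A4 (ASCT1; chr2:64988477-65023865, plus strand), an exchanger of alanine, serine, cysteine and threonine, was at 411, 320 and 352 normalized counts in untreated and 206, 184 and 181 in dox-treated MIA PaCa-2 and was called lower (1.87-fold, log2 -0.90 ± 0.12, edgeR adjusted p = 1.09e-04). In Pa-Tu-8902 it was at 318, 316 and 369 against 219, 275 and 261 (log2 -0.41 ± 0.11, edgeR adjusted p = 0.00857), under the fold limit. The difference in its response between the lines did not pass the threshold (log2 0.49 ± 0.16, edgeR adjusted p = 0.0352), nor did that of SLC1A5 (log2 -0.26 ± 0.11, edgeR adjusted p = 0.0908). Neither was called between the untreated lines.

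SLC38A1 and SLC38A2, neighbouring genes on chromosome 12 with 88170 bases between them, encode the sodium-coupled carriers SNAT1 and SNAT2 of glutamine and small neutral amino acids. SLC38A1 (chr12:46183063-46270017, minus strand) was called lower with dox in both lines, the only one of the 10 that was. Its normalized counts were 14747, 15565 and 14934 in untreated and 8129, 8021 and 8333 in dox-treated Pa-Tu-8902 (1.85-fold lower, log2 -0.89 ± 0.05 SE, edgeR adjusted p = 1.79e-07). In MIA PaCa-2 they were 6216, 5281 and 5870 against 2894, 2980 and 2833 (1.96-fold lower, log2 -0.97 ± 0.07, edgeR adjusted p = 1.25e-06). The responses of the lines differed by 0.09 ± 0.09 on the log2 scale (edgeR adjusted p = 0.509).

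SLC38A2 (chr12:46358188-46372773, minus strand) differed in direction between the lines. It stood at 7920, 7814 and 8183 normalized counts in untreated and 9947, 9606 and 10070 in dox-treated Pa-Tu-8902, all dox libraries being higher (log2 0.31 ± 0.05 SE). In MIA PaCa-2 it stood at 25564, 22811 and 23602 against 18628, 18936 and 19118, all dox libraries being lower (log2 -0.32 ± 0.06). Both passed the p but not the fold limit, with edgeR adjusted p = 2.23e-04 and 0.00167. The difference between the responses was 0.63 ± 0.08 (edgeR adjusted p = 1.45e-05) and was called, but without untreated replicate 1 of MIA PaCa-2 it was 0.58, just short of the fold limit. The ratio of SLC38A2 to SLC38A1 in TPM was 0.83 ± 0.05 (SD, n = 3) in untreated and 2.05 ± 0.05 in dox-treated Pa-Tu-8902, and 6.62 ± 0.39 and 10.3 ± 0.84 in MIA PaCa-2.

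SLC7A1 (CAT1; chr13:29509414-29595688, minus strand), the carrier of arginine, lysine and ornithine, also had fitted responses of opposite sign in the lines, and with SLC38A2 it was one of the 2 members whose difference in response was called. Its normalized counts were 6568, 6973 and 6950 in untreated and 5125, 5673 and 5432 in dox-treated Pa-Tu-8902 (log2 -0.34 ± 0.05 SE, edgeR adjusted p = 2.11e-04). In MIA PaCa-2 they were 4023, 3139 and 3930 against 5246, 5263 and 4513 (log2 0.46 ± 0.09, edgeR adjusted p = 0.00244). Neither change reached 1.5-fold, and in neither line did the groups overlap. The difference between the responses was -0.80 ± 0.12 (edgeR adjusted p = 6.31e-05).

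**Figure D3:**
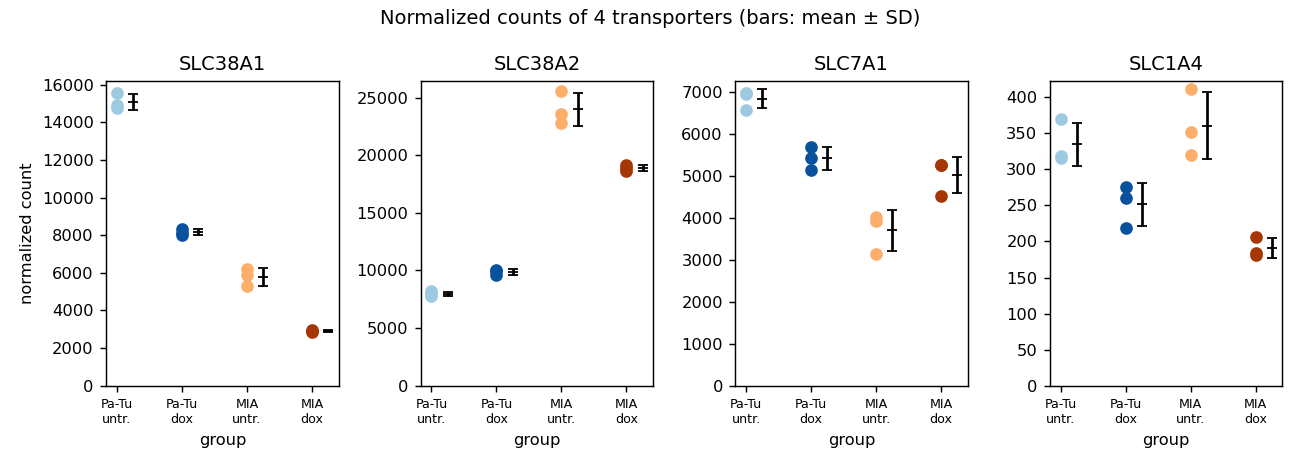
Normalized counts of SLC38A1, SLC38A2, SLC7A1 and SLC1A4 in each library (points), with the mean ± SD of each group of 3 beside them, on axes that start at 0. SLC38A1 and SLC1A4 are lower with dox in both lines, and SLC38A2 and SLC7A1 go in opposite directions.

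SLC1A3 (EAAT1 or GLAST; chr5:36596588-36688334, plus strand), an importer of glutamate and aspartate, stood at 13.3 ± 0.57 TPM (SD, n = 3) in untreated Pa-Tu-8902, the seventh level of the 10, and at or near 0 in MIA PaCa-2. Its counts were 626, 823 and 646 in untreated Pa-Tu-8902 and 0, 5 and 0 in untreated MIA PaCa-2, where the 5 counts came from a single library. The rate in untreated Pa-Tu-8902 was 420 times that in MIA PaCa-2, with a 95% exact interval of 180 to 1290 that covers counting error only. With dox, its normalized counts rose in Pa-Tu-8902 from 720, 746 and 704 to 1913, 1493 and 1645 (2.32-fold, log2 1.22 ± 0.09 SE, edgeR adjusted p = 1.96e-06), a larger fold change than that of the other 9 members in this line. In dox-treated MIA PaCa-2 the counts were 1, 0 and 1, and the gene was not tested there. SLC6A9 (GLYT1; chr1:43991500-44031467, minus strand), the glycine importer, showed the reverse line preference, with 82, 114 and 99 counts in untreated Pa-Tu-8902 and 628, 472 and 614 in untreated MIA PaCa-2 (5.73-fold lower in Pa-Tu-8902, log2 -2.52 ± 0.13, edgeR adjusted p = 6.67e-10). It did not pass the test with dox in either line (log2 -0.33 ± 0.14 and -0.23 ± 0.10, edgeR adjusted p = 0.0703 and 0.0949). Exons of SLC6A9 share 413 bases with CCDC24 on the opposite strand, which was listed at up to 8.06 TPM, and the strand setting of the counting is not given beyond default parameters.

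Counted over the set, 3 of 10 members were called with dox in Pa-Tu-8902 (SLC1A3 higher, SLC1A5 and SLC38A1 lower), where 16.3% of 14949 genes tested were called, 9.22% higher and 7.12% lower. In MIA PaCa-2, 3 of 9 members tested were called, all lower (SLC1A4, SLC38A1 and SLC43A1), where 12% of 14589 genes were called, 4.36% higher and 7.64% lower. Groups did not overlap for 7 of 10 members in Pa-Tu-8902 and for 8 of 9 in MIA PaCa-2, beside 58.5% and 52.4% of all genes. The median log2 change was -0.15 and -0.32, beside 0.00 and -0.01 over all genes tested. The response differed between the lines for 2 of 10 members, 1 in each direction, beside 10.4% of 16544 genes, of which 6.56% were positive and 3.86% negative. Between the untreated lines 7 of 10 members were called, a share near that of all genes, with 5 higher in Pa-Tu-8902 and 2 lower, beside 58.1% of 15608 genes (28.9% higher and 29.3% lower), and groups did not overlap for 8 of 10, beside 81.6% of all genes. SLC1A3 is among the 5 and passed the filter on low counts only through Pa-Tu-8902, so that it had to differ.

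**Figure D4:**
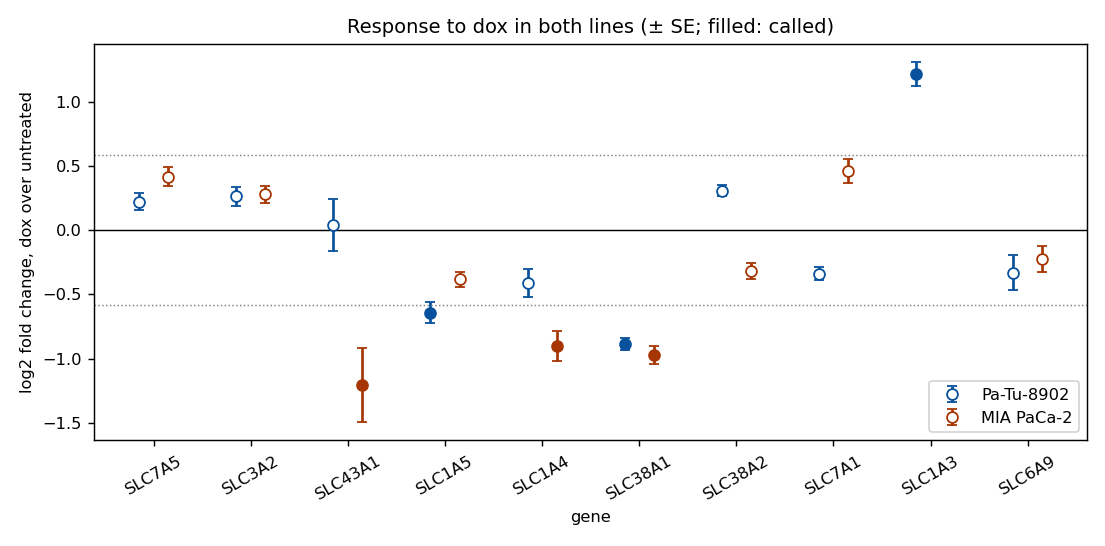
log2 fold change with dox (± SE) of the 10 transporters in Pa-Tu-8902 and MIA PaCa-2, from 3 libraries a group. Filled points were called, dotted lines mark the fold limit of 1.5, and SLC1A3 has no MIA PaCa-2 point because it was not tested there.

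At baseline, SLC38A2 led the set in MIA PaCa-2 with 210 ± 27.1 TPM (SD, n = 3), above SLC3A2 at 125 ± 6.13, SLC7A5 at 101 ± 15.8 and SLC1A5 at 98.9 ± 8.12. The ranges of SLC7A5 and SLC1A5 overlapped. In Pa-Tu-8902 the order below the heterodimer was SLC1A5 at 121 ± 7.93, SLC38A1 at 89.4 ± 8.26, SLC38A2 at 73.6 ± 3.56 and SLC7A1 at 39.0 ± 2.09, with no overlap between neighbouring ranges. SLC38A1 and SLC7A1 were higher in untreated Pa-Tu-8902 than in MIA PaCa-2 (2.63-fold and 1.86-fold, edgeR adjusted p = 1.82e-09 and 8.09e-07), and SLC38A2 was 2.98-fold lower (edgeR adjusted p = 2.19e-10).

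One transcript carried most of the TPM of several members. SLC7A1-201 held at least 99.1% of the SLC7A1 TPM in each group mean, and SLC1A4-201 held 92.3% to 95.9% of that of SLC1A4. SLC7A5 was split between SLC7A5-201 and SLC7A5-203, with 73.8% ± 2.80 and 26.1% ± 2.93 (SD, n = 3) in untreated MIA PaCa-2. SLC1A5-205, a minor coding transcript, held 10.1% ± 0.44 of SLC1A5 in untreated and 5.86% ± 0.53 in dox-treated Pa-Tu-8902, without overlap, and 1.23% ± 0.61 in untreated MIA PaCa-2. SLC38A2-208, annotated as a target of nonsense-mediated decay, held 6.76% ± 0.91 of SLC38A2 in untreated and 3.74% ± 0.99 in dox-treated Pa-Tu-8902. RSEM assigns reads shared by transcripts by estimation, so these shares are descriptions with no test.

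Other amino acid transporters were listed for comparison. Of 31, 21 stayed under 1 TPM in every library. Of 9 tested in Pa-Tu-8902, 3 were called higher and 1 lower with dox, beside 9.22% and 7.12% of all genes tested. Of 10 tested in MIA PaCa-2, 2 were called higher and 2 lower, beside 4.36% and 7.64% of all genes tested. SLC6A6, the taurine importer, rose in both lines (log2 0.97 ± 0.05 SE and 0.96 ± 0.07), as did SLC36A1, a proton-coupled carrier also found on lysosomes (log2 0.97 ± 0.06 and 0.69 ± 0.08). SLC43A2 (LAT4), a relative of SLC43A1, rose in Pa-Tu-8902 (log2 1.19 ± 0.09) and had a log2 value of -0.34 ± 0.07 in MIA PaCa-2, a difference of 1.53 ± 0.13 (edgeR adjusted p = 1.11e-07). SLC1A1, like SLC1A3 a carrier of glutamate and aspartate, was scarce at 0.13 to 1.31 TPM. It was called lower in MIA PaCa-2 (log2 -1.37 ± 0.33, edgeR adjusted p = 0.006). In Pa-Tu-8902 its log2 value was -0.38 ± 0.15 (edgeR adjusted p = 0.0528), not called.

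Of 10 other transporters tested between the untreated lines, 9 were called, 4 higher in Pa-Tu-8902 and 5 lower, beside 58.1% of 15608 genes. SLC7A2, SLC16A10 and SLC38A4 are among the 5 and passed the filter on low counts only through MIA PaCa-2. SLC6A6, SLC7A11 and SLC36A4, another proton-coupled carrier, were higher in Pa-Tu-8902 (2.99-fold, 3.33-fold and 1.52-fold). SLC7A6 and SLC43A2 were lower (1.56-fold and 1.91-fold), with edgeR adjusted p of at most 1.37e-05 for each of these genes. SLC16A10, a carrier of aromatic amino acids, had 0 counts in all Pa-Tu-8902 libraries and 213, 218 and 217 in untreated MIA PaCa-2. SLC38A4 had 5, 1 and 5 counts in untreated Pa-Tu-8902 against 304, 211 and 272, and its responses differed by 1.86 ± 0.46 on the log2 scale (edgeR adjusted p = 0.00612) from counts of at most 19 in Pa-Tu-8902, where it passed the filter only with dox. Its response was called in neither line (log2 1.61 ± 0.54 and -0.23 ± 0.12, edgeR adjusted p = 0.0289 and 0.14). The light chain SLC7A7 was tested in Pa-Tu-8902 and not called (log2 1.16 ± 0.33, edgeR adjusted p = 0.0125).

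Of 10 amino acid response genes, 9 were tested in each line. In Pa-Tu-8902, 4 were called lower and 0 higher (ASNS, CHAC1, DDIT3 and TRIB3), beside 7.12% lower and 9.22% higher of all genes tested. In MIA PaCa-2, 2 were called lower (DDIT3 and TRIB3) and 1 higher (SESN2), beside 7.64% lower and 4.36% higher of all genes tested. ASNS, asparagine synthetase, fell by 1.11 ± 0.05 (SE) on the log2 scale in Pa-Tu-8902 and had a value of -0.49 ± 0.06 in MIA PaCa-2. DDIT3 (CHOP) fell by 0.79 ± 0.09 and 0.61 ± 0.14, and TRIB3, a pseudokinase, fell by 0.68 ± 0.10 and 0.63 ± 0.08. SESN2, a sestrin, had a log2 value of 0.29 ± 0.09 in Pa-Tu-8902 and rose by 0.63 ± 0.07 in MIA PaCa-2. DDIT4 (REDD1) had values of 0.27 ± 0.05 and -0.56 ± 0.07, both under the fold limit. The difference in response between the lines was called for ASNS (-0.62 ± 0.08, edgeR adjusted p = 2.71e-05) and DDIT4 (0.83 ± 0.09, edgeR adjusted p = 1.74e-06). SESN2 and DDIT4 were named after their values were seen. ATF4 mRNA had log2 values of -0.41 ± 0.06 and -0.04 ± 0.07, neither past the fold limit. ATF4 is controlled largely through translation, which these libraries do not measure. The median log2 change over the tested list was -0.41 for Pa-Tu-8902 and -0.49 for MIA PaCa-2, beside 0.00 and -0.01 over all genes tested.

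Over the 12 libraries, with line means subtracted, the genes most like SLC7A5 were TMEM127, MARK2 and PAK4 (Pearson r of log2 CPM 0.991, 0.986 and 0.986, among 13108 genes). Those most like SLC3A2 were ALG1, YIF1B and GRK6 (r 0.982, 0.98 and 0.974). SLC3A2 ranked 878 among genes like SLC7A5, and SLC7A5 ranked 686 among genes like SLC3A2 (r 0.817). The libraries share the dox contrast, so these values are descriptions.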

How the data were processed

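The 12 libraries (polyA+, directional kit) were trimmed with Trimmomatic 0.39, aligned with STAR 2.5.2a as called by RSEM 1.3.1 and quantified on GRCh38 with default parameters, per the labels and the study's methods. The authors deposited RSEM expected counts (estimated counts, not normalized) and TPM for 58721 genes, transcript tables, and effective gene lengths in bases. FPKM tables were not used here. Of the expected counts, 5.34% were not whole, and all were rounded before testing. The dox concentration is given in different units in the labels and the methods, so none is printed.

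Library sizes were scaled by TMM, and the quasi-likelihood functions glmQLFit and glmQLFTest of edgeR 4.0.16 were run under R 4.3.3. Genes entered a fit when 3 or more of its libraries had 10 counts or more, and p-values were adjusted by Benjamini-Hochberg across every gene tested. Each line was fitted apart, as were the untreated lines. The difference in response was the interaction of a fit of all 12 libraries. Calls needed both an adjusted p under 0.01 and a change of 1.5-fold or more, after the study's thresholds. Positive differences are dox minus untreated, or Pa-Tu-8902 minus MIA PaCa-2. Printed normalized counts were scaled by TMM over all 12 libraries. TPM was used where genes are compared with each other. Total counts of 26226537 to 43406137 limit precision at genes of a few counts, and intervals cover counting error only. The test was tested on simulated data, in which 200 of 200 changed genes were called in each comparison. Every simulated gene had the same fixed spread between libraries, and the changes lay beyond the fold limit in well-counted genes. Whether genes near the fold limit, genes of a few counts, or genes with a larger spread would be called as fully was not tested.

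Groups came from the sample titles. Same-numbered libraries did not deviate together (correlations of -0.12 to 0.10), so replicate numbers were not taken as pairs. Positions came from GENCODE release 44 on the same assembly, in which all 10 identifiers matched, and motif sequences from RefSeq windows of GRCh38.p14. The members and lists were chosen with earlier results of these data known. Named were the 10 members, other transporters called in some comparison at a mean of at least 100 normalized counts, SLC3A2 light chains, 4 amino acid response genes by value, and the 3 genes most like SLC7A5 and SLC3A2. SLC1A1, under that mean, was named as well because it carries the same substrates as SLC1A3. Alternatives were DESeq2 1.42.0, its size factors, 2 other filters, effective lengths as offsets, other thresholds, a replicate block, 1 fit of all libraries, and each library left out.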

Additional observations from a re-analysis of the deposited data

Results flagged for a closer look

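The response of SLC7A1 to dox differed between the lines by the interaction test: Pa-Tu-8902 minus MIA PaCa-2 was -0.80 ± 0.12 (SE) on the log2 scale, from values of -0.34 (Pa-Tu-8902) and 0.46 (MIA PaCa-2) (edgeR adjusted p = 6.31e-05). All 3 dox libraries lay below the untreated ones for Pa-Tu-8902 and above them for MIA PaCa-2. The response of SLC38A2 differed in the other direction, by 0.63 ± 0.08 (edgeR adjusted p = 1.45e-05), from 0.31 (Pa-Tu-8902) and -0.32 (MIA PaCa-2). It fell to 0.58 without untreated replicate 1 of MIA PaCa-2, which is short of the fold limit. Groups of 3 libraries were not tested for single outlying libraries.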

How the results depend on the processing

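The direction of each call on a member stayed the same under the alternatives run. With no fold limit, 5692 genes and 6 members passed for Pa-Tu-8902, 3973 genes and 8 members for MIA PaCa-2, and 2799 genes for the difference between the lines. Under an adjusted p limit of 0.05 with a 2-fold limit, 1288 genes and 1 member passed for Pa-Tu-8902, 845 and 1 for MIA PaCa-2, and 1119 and 1 for the difference. These changes follow from the thresholds themselves. Leaving out 1 library at a time gave 2 to 3 members called for Pa-Tu-8902 (2114 to 2339 genes), 2 to 3 for MIA PaCa-2 (1479 to 1835 genes), 6 to 7 between untreated lines (7649 to 7943 genes) and 1 to 3 for the difference (1549 to 1726 genes). Between untreated lines the 6 arose without an untreated Pa-Tu-8902 library, where SLC1A3 no longer passed the filter on low counts. No called member that was still tested lost its call there. With the replicate block, 3, 3, 7 and 2 members were called, as without it, and 2380, 1735, 8891 and 1611 genes. Of 28 ratios of group means, 24 moved by less than the replicate spread when TPM replaced normalized counts. The isoform shares differed more, 29 of 38 moving by more than 1 SD with counts in place of TPM. Depth limits SLC43A1 and, in MIA PaCa-2, SLC1A3.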
